A study of Mus musculus with 4 samples.

Results

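The 33 genes described here encode the glucose transporters, the enzymes of glycolysis, the lactate and pyruvate steps, the oxygen-sensing HIF pathway and the pentose phosphate pathway. They were chosen by name as members of these pathways, with earlier results of these data known. All 33 stood among the 22865 gene symbols of the count table. Of the 33 genes, 29 were counted highly enough to be tested for a difference between genotypes. The other 4, Pfkm, Aldoc, Eno1 and Eno3, had 2 to 11 counts in each library.

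Glycolysis splits glucose into pyruvate in the cytosol and yields ATP without oxygen. Lactate dehydrogenase turns pyruvate into lactate, which monocarboxylate transporters carry out of the cell, while pyruvate dehydrogenase passes pyruvate to the mitochondria. The pentose phosphate pathway branches from glucose 6-phosphate and supplies NADPH and ribose. HIF-1α is a transcription factor that is degraded when oxygen is plentiful, after prolyl hydroxylases modify it, and that raises many glycolytic genes when it is stable. Helper T cells of the αβ lineage that make interleukin-17 are known to depend on HIF-1α and glycolysis in several settings. Whether γδ T cells do was not tested here. Several steps are served by alternative isoforms, which differ in affinity, tissue distribution and regulation.

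The RNA came from γδ T cells of the lungs of female C57Bl/6 mice aged 10 weeks, either Aire-/- or Aire+/+, with 2 libraries per genotype. Aire is the regulator that lets thymic epithelial cells display proteins of other tissues to T cells as they develop. The cells were sorted as viable CD45+ TCRb- TCRgd+ CD27- cells that lacked several other Vγ chains, a population the submitters name Tgd17, for γδ T cells that make interleukin-17. Smart-Seq2 was run on 500 cells for each library, a method that copies whole transcripts from little RNA. The labels used here do not give the targeted Aire allele or say whether each library came from 1 animal or several. The p-values below thus rest on the spread of these 4 libraries alone, and that spread may be technical.

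Total counts ran from 1106891 to 1265239 per library, and Aire had 0 counts in all 4, so it checked no genotype label. The ribosomal RNA precursor Rn45s took 19.4% to 20.4% of counts in Aire-/- and 16.2% to 17.4% in Aire+/+ libraries. Markers of γδ T17 cells were present, with Il17a, which encodes interleukin-17A, at 177 to 237 counts. All 13 genes of that T cell list had fitted log2 fold changes (Aire-/- over Aire+/+) above 0, with 0 called, and their summed CPM (counts scaled to library size) was 6961 and 7756 in Aire-/- against 4814 and 6635 in Aire+/+ libraries. B cell genes, which the sort should exclude, were present too. All 13 of them had fitted values below 0 and 1, the immunoglobulin joining chain Igj, was called lower, with sums of 3200.0 and 2481 CPM against 6378 and 3852 CPM. Of 7 tested macrophage, monocyte and dendritic cell genes 6 lay lower, with sums of 424 and 462 CPM against 906 and 479 CPM. Natural killer cell genes summed to 79.2 and 210 CPM against 211 and 157 CPM, with 3 of 4 tested genes below 0 and 1 of the 7 listed, Klra8, at 0 in every library. The 4 haemoglobin genes listed were at 0 in every library. The whole list of red cell and platelet genes summed to 16.9 and 11.1 CPM in Aire-/- against 26.9 and 19.2 CPM in Aire+/+ libraries. In bulk RNA, fewer cells of a type and less RNA per cell cannot be told apart.

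The 33 genes together took 0.487% and 0.512% of the counts other than Rn45s in the Aire-/- libraries, against 0.410% and 0.428% in the Aire+/+ libraries. The Aire-/- pair lay above the Aire+/+ pair without overlap. Ordered from the highest share to the lowest, the libraries were Aire-/- 2, Aire-/- 1, Aire+/+ 2 and Aire+/+ 1. This is the order of the B cell list's sum from lowest to highest, and also that of the γδ T17 list's sum from highest to lowest. Sums of fewer markers did not keep this order. The CD3 chains summed to 1354 and 1474 CPM in Aire-/- against 981 and 1492 CPM in Aire+/+ libraries (replicates 1 and 2). The B cell genes Ms4a1, Cd79a and Cd79b summed to 1334 and 1004 CPM against 2040 and 1303 CPM. The part of either cell type's transcripts in the share of the 33 genes was not tested.

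Levels were compared between genes as RPKM, the CPM per kilobase of the gene's longest protein-coding transcript. The most abundant gene was Ldha, the muscle-type lactate dehydrogenase, at 285 ± 45 RPKM (SD, n = 4 libraries of both genotypes). It was followed by Pkm, the pyruvate kinase of the last ATP-yielding step, at 223 ± 35.4 RPKM. Aldoa, the main aldolase, stood at 165 ± 19.2 RPKM, and Taldo1, the transaldolase of the pentose phosphate pathway, at 143 ± 15.3 RPKM. Over the 4 libraries Aldoa ran from 141 to 184 RPKM and Taldo1 from 124 to 159 RPKM, so these neighbours in the order did not differ beyond their spread.

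The genes of glucose entry were counted at lower levels. The glucose transporters Slc2a3 and Slc2a1 stood at 17.3 ± 0.99 and 9.61 ± 3.91 RPKM, and the hexokinases Hk2 and Hk1, which trap glucose by phosphorylating it, at 15.01 ± 8.51 and 10.2 ± 2.63 RPKM. Gpi1, the isomerase that follows, was far above them at 116 ± 17.6 RPKM. Among the later enzymes, Pgk1, the phosphoglycerate kinase, stood at 117 ± 24.7, Pgam1, the mutase, at 103 ± 16.3, and Tpi1, the triose isomerase, at 53.8 ± 10.7 RPKM. Gpi1, Pgk1 and Pgam1 did not differ beyond their spread.

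At the branch points the levels spread widely. Tkt, the transketolase, stood at 65.6 ± 14.2 RPKM, Pgd at 27.1 ± 1.93 and G6pdx, which opens the pentose phosphate pathway, at 18.4 ± 8.83 RPKM. Pdha1, the subunit that commits pyruvate to the mitochondria, stood at 59.6 ± 12.3 RPKM, far above its kinases Pdk3 at 10.1 ± 3.37 and Pdk1 at 4.17 ± 1.504 RPKM. The lactate transporters were lower still than lactate dehydrogenase, with Slc16a3 at 6.41 ± 2.32 and Slc16a1 at 2.95 ± 0.24 RPKM. Bnip3 stood at 9.78 ± 1.59 RPKM.

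**Figure D1:**
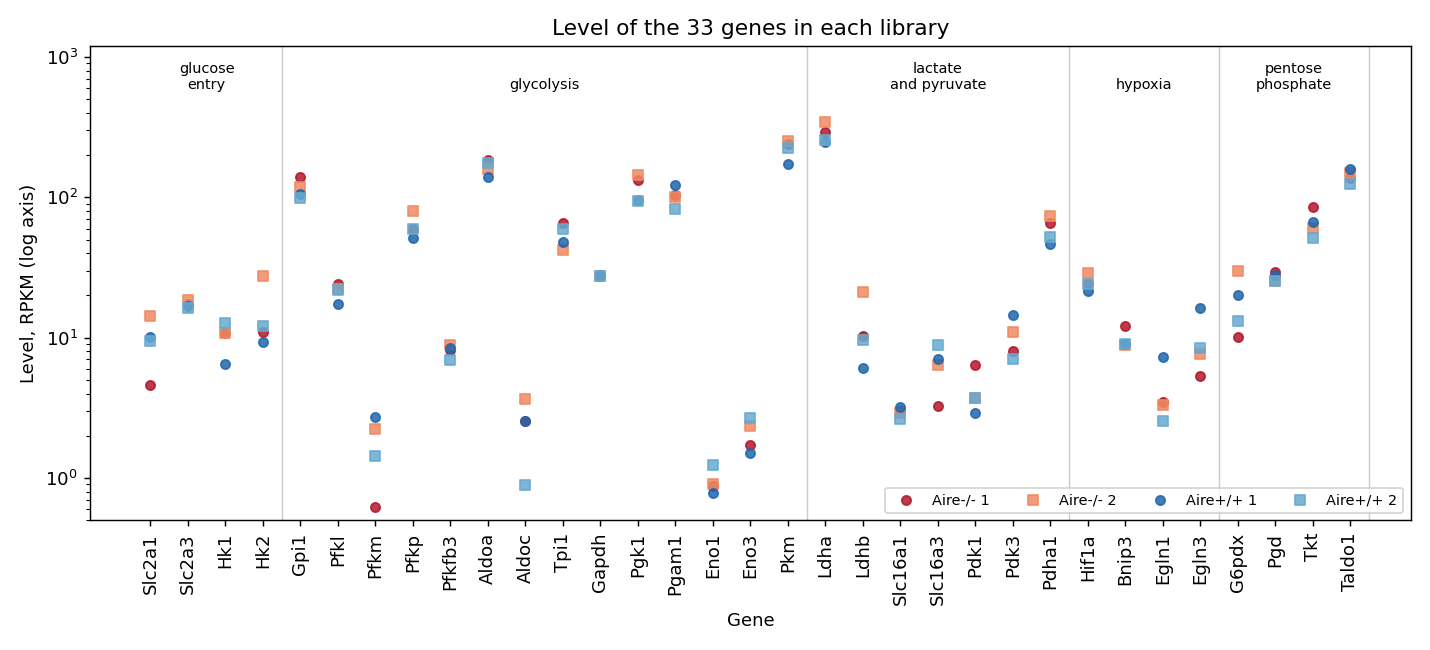
Level of each of the 33 genes in RPKM (vertical log axis) in the 4 libraries, with genes on the horizontal axis grouped by role; red and orange points are Aire-/- replicates 1 and 2, dark and light blue points Aire+/+ replicates 1 and 2. Ldha, Pkm, Aldoa and Taldo1 are the highest, and Eno1 is the lowest at 0.95 RPKM on average.

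Gapdh and Eno1, enzymes that most cells carry in abundance, were counted at low levels beside their neighbours in the pathway. Gapdh had 44 and 42 counts in Aire-/- against 50 and 47 in Aire+/+, a level of 27.6 ± 0.20 RPKM. Eno1, the ubiquitous enolase, had 2 counts in 3 libraries and 3 in Aire+/+ replicate 2, or 0.95 ± 0.20 RPKM, the lowest of the 33 genes. The other enolase genes were counted low too. Eno3, the muscle enolase, had 3 to 5 counts, Eno2, the neuronal enolase, 6 to 16 counts, and Eno1b, a gene nearly identical to Eno1, 4 to 10 counts.

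Both genes share much of their sequence with other genes. Of all 50-base windows in the Gapdh transcript, 82.5% occurred in a transcript of another annotated gene, and 213 annotated pseudogenes held at least 1 of them. For Eno1 the share was 72.2%, with Eno1b alone holding 70.5%. The Eno1 stretch printed below recurs in Gm4735 and Gm5223 only, so it does not show the sharing with Eno1b. Pgk1 shared 68.0% of its windows with 5 pseudogenes and stood at 117 RPKM. Of the genes that share windows, 10 for Gapdh, 1 for Eno1 and 0 for Pgk1 were in the count table. Bnip3 (62.4%) and Pgam1 (41.5%) were the only other members above 40%, while 13 of the 33 shared no window. How the authors treated reads that match several places is not given in the sources used here, and the part of shared sequence in the low counts was not tested. The counts of Gapdh, Eno1, Pgk1, Pgam1 and Bnip3 are therefore uncertain as levels. Lower shares, such as those of Pkm (34.4%), Ldhb (27.0%), Gpi1 (25.3%) and Ldha (16.6%), leave some doubt over those levels too.

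The coding stretches below are examples of this sharing and do not give its full extent. Each is taken from the GENCODE M21 transcript of the gene, 5′ to 3′, and the capitals mark 50 bases that recur letter for letter in other annotated genes. The stretch of Gapdh (chromosome 6, 125161715 to 125166467, minus strand, GRCm38) recurs in 69 other genes, and that of Eno1 (chromosome 4, 150236721 to 150248879, plus strand) in 2.
Gapdh: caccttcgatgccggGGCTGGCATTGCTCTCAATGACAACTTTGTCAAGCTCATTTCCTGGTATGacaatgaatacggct
Eno1: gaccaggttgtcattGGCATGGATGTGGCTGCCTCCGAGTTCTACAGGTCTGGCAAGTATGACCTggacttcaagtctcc
A read that falls within the capitals cannot be assigned to 1 gene by its sequence.

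**Figure D2:**
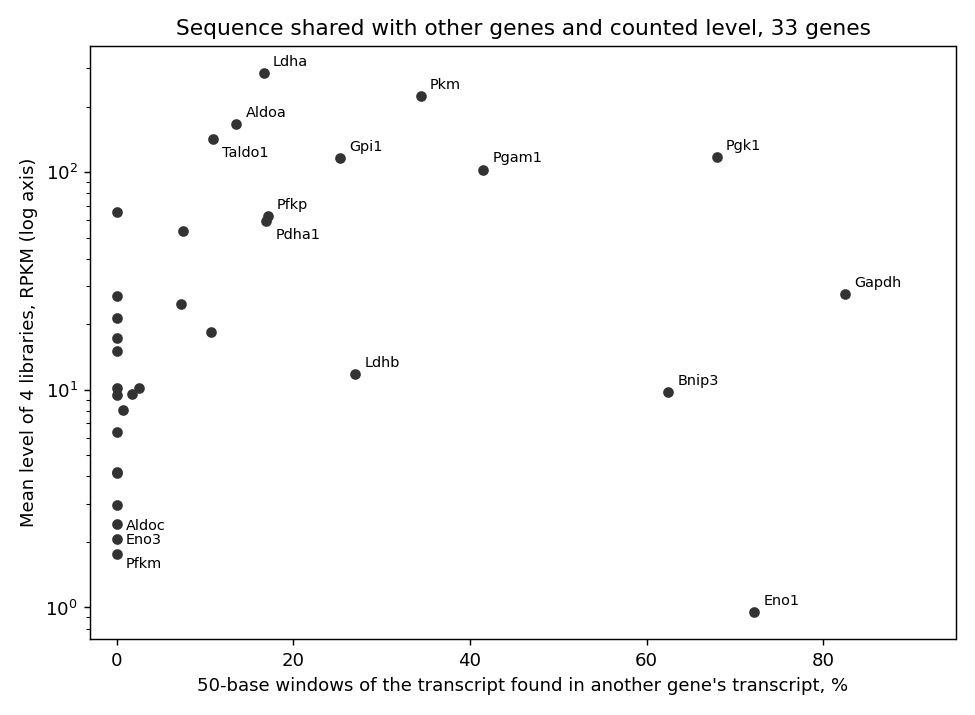
Mean level over the 4 libraries in RPKM (vertical log axis) against the percentage of 50-base windows of the transcript found in a transcript of another gene (horizontal axis), 1 point for each of the 33 genes. Eno1 and Gapdh share 72.2% and 82.5% of their windows and are counted at 0.95 and 27.6 RPKM. Pgk1 shares 68.0% and is counted at 117 RPKM.

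Isoform choice was read as the share of a family's reads per kilobase that each member took in each library. The strongest preferences were for Aldoa over the brain aldolase Aldoc and for Ldha over the heart-type subunit Ldhb. Aldoa took 98.5 ± 0.73% of the aldolase reads per kilobase and Ldha 96.2 ± 1.43% of those of the lactate dehydrogenases (SD, n = 4). Among phosphofructokinases, the enzymes that commit glucose to glycolysis, the platelet-type Pfkp led with 72.7 ± 2.66%, the liver-type Pfkl took 25.2 ± 3.19% and the muscle-type Pfkm 2.11 ± 1.29%. The 4 libraries gave nearly the same picture for these 3 families.

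Pfkp ranged from 70.6% to 76.6% of its family and Ldha from 94.2% to 97.6% of the pair. Ldha (chromosome 7, 46841475 to 46855627) was 26.7 times Ldhb (chromosome 6, 142490249 to 142507957) per kilobase on the geometric mean of the libraries. Pfkp was 2.91 times Pfkl. Ldha shared 16.6% and Ldhb 27.0% of windows with other genes, and the part of this in their ratio was not tested. Part of the Pfkp transcript (17.1% of windows) overlaps Pitrm1 on the opposite strand, and reads of the 2 genes cannot be told apart without strand.

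The remaining families were more even and varied more between libraries. Slc2a3, the high-affinity transporter GLUT3, took 65.3 ± 9.45% of the transporter pair, above Slc2a1, which encodes GLUT1, in all 4 libraries. Hk2, the inducible hexokinase, took 57.5 ± 10.6% and was above Hk1, the constitutive one, in 3 of 4 libraries. This order depends on the length used: Hk2 was above Hk1 in 4 of 4 libraries with coding length (mean share 64.1%) and with counts not divided by length (63.4%). Slc16a3, the exporter MCT4 of glycolytic cells, took 66.7 ± 10.4% against Slc16a1, which encodes MCT1, and was above it in 4 of 4 libraries. Neither led the wider family, in which Slc16a6 stood at 62.9 ± 17.9 RPKM against 6.41 for Slc16a3. Egln3 took 69.1 ± 6.60% against Egln1, the main oxygen sensor of the HIF pathway, also in 4 of 4 libraries.

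Pdk3 took 69.8 ± 11.9% against Pdk1, both being kinases that switch pyruvate dehydrogenase off, but this order rests on the transcript lengths. Without division by length Pdk3 took 49.9% and the order was lost. Between the 2 enolases among the 33 genes, Eno3 took 68.1 ± 2.89%, a share of 5 to 8 counts in all that also carries the doubt over Eno1. In an exact two-sided sign-flip test over the 4 libraries, the leading member had p = 0.125 in 8 of the 9 families and p = 0.375 for the hexokinases. With 4 libraries 0.125 is the smallest p possible, and adjusted over the 9 families it was 0.141.

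**Figure D3:**
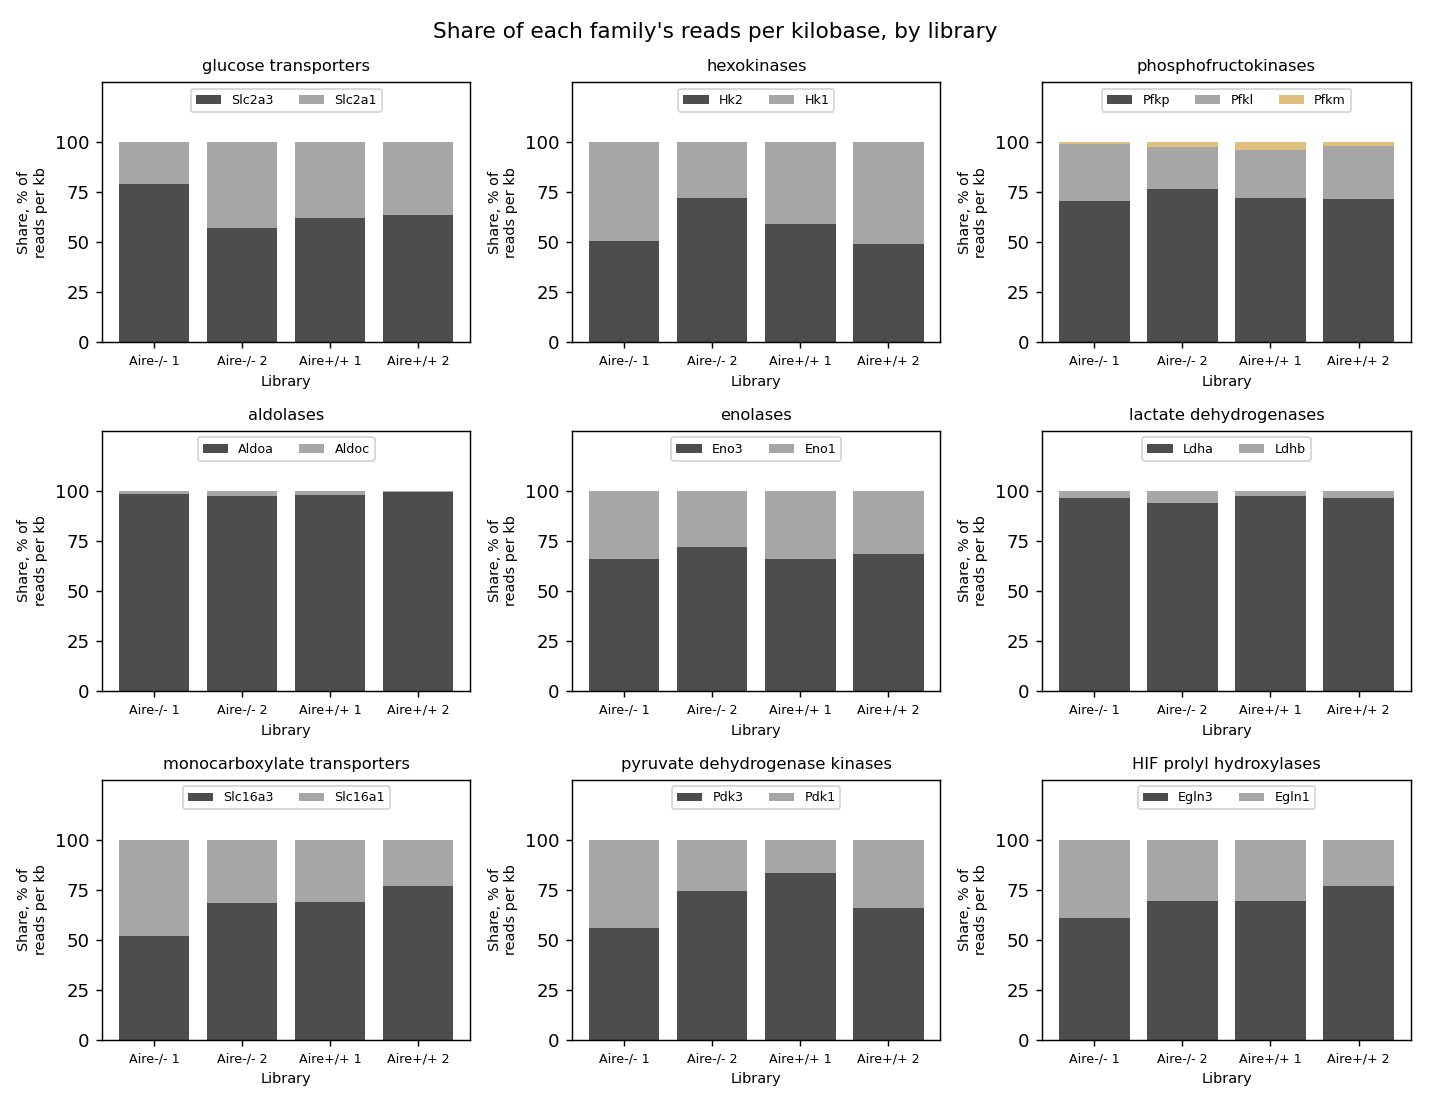
Share of each family's reads per kilobase taken by its members (vertical axis, percent) in each of the 4 libraries (horizontal axis), 1 panel for each of the 9 families. Aldoa, Ldha and Pfkp lead in every library by similar margins, while the hexokinase shares cross between libraries.

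Several isoforms outside the 33 genes had few counts. Hk3 had 0 to 5 counts, Slc2a4, the insulin-responsive transporter, 7 to 11, Ldhc, the testis subunit, 2 to 7, and Pdk4, a kinase induced by fasting, 2 to 9. Others reached the level of a member. Pdk2, a further pyruvate dehydrogenase kinase, had 3 to 22 counts, or 3.75 ± 3.05 RPKM against 4.17 for Pdk1. In Aire+/+ replicate 2 Pdk2 stood at 8.16 RPKM, above Pdk3 at 7.09 RPKM. Pfkfb3, the activator of phosphofructokinase that is known in growing cells, stood at 8.09 ± 0.82 RPKM, below Pfkfb2 of the same family at 15.7 ± 2.51 RPKM. Slc2a6 reached 10.96 ± 1.19 RPKM, and the third HIF prolyl hydroxylase, Egln2, 9.40 ± 1.32 RPKM, against 9.44 ± 4.77 for Egln3 and 4.15 ± 2.11 for Egln1. Egln2 and Egln3 did not differ beyond their spread. Emb, a membrane partner of monocarboxylate transporters, stood at 386 ± 108 RPKM, and its log2 fold change between genotypes was 0.45 (adjusted p = 0.908, edgeR).

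The comparison of genotypes asks whether loss of Aire alters these genes. None of the 29 tested members passed the test. By edgeR's quasi-likelihood test adjusted over all 9783 tested genes, 0 members were called higher and 0 lower at an adjusted p under 0.05, where the background was 0.0% of all genes higher and 0.0204% lower. DESeq2 and limma-voom also called 0 members. The smallest adjusted p among the members was 0.888. At an unadjusted p under 0.05 there were 3 members higher, Hk2, Pgk1 and Pdha1, and 0 lower, against 2.8% and 2.77% of all genes.

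Fitted log2 fold changes of the members (Aire-/- minus Aire+/+) lay above 0 for 22 of 29 genes (75.9%) and below 0 for 7, with a median of 0.18. Over all tested genes 50.9% lay above 0 and 49.1% below, and the median was 0.01. Without overlap between the genotypes, 11 members (37.9%) lay higher in Aire-/- libraries and 3 (10.3%) lower, against 17.2% and 17.3% of all genes. Gapdh was 1 of these 3, though nearly tied, at 39.155 CPM in Aire-/- replicate 1 against 39.156 CPM in Aire+/+ replicate 2. In the Aire-/- libraries the γδ T17 list summed higher and the B cell list lower, as given above. The sums of the CD3 chains and of Ms4a1, Cd79a and Cd79b overlapped between the genotypes. The part of this mixture in the members' values was not tested.

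Among the glucose entry genes, Hk2 (chromosome 6, 82725025 to 82774454) had 68 and 165 counts in Aire-/- against 65 and 80 in Aire+/+. Only Aire-/- replicate 2 was high, and the other Aire-/- library lay among the Aire+/+ libraries. Hk2 differed by 0.85 on the log2 scale (SE 0.37, adjusted p = 0.888, edgeR), and it was 0.04 without Aire-/- replicate 2. Slc2a1 had 17 and 50 counts against 42 and 37, so its Aire-/- libraries lay on both sides of Aire+/+. Its log2 fold change of -0.07 became 0.53 without Aire-/- replicate 1 and -1.08 without Aire-/- replicate 2. Slc2a3 was steady at 77 and 80 against 84 and 78 counts, a log2 fold change of 0.11. Hk1 had 52 and 50 against 35 and 65 counts, with the Aire+/+ libraries on both sides of Aire-/- (0.18).

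Of the glycolytic enzymes and their regulator Pfkfb3, 10 were tested, 8 of them had log2 fold changes above 0 (median 0.20), and 0 passed. Pgk1 had the smallest p of all members, with 271 and 283 counts in Aire-/- against 223 and 208 in Aire+/+. Both Aire-/- values were above both Aire+/+ values. The fold change was 1.44 in favour of Aire-/- (log2 0.52, SE 0.20, adjusted p = 0.888, edgeR), and it kept to 0.46 to 0.58 on the log2 scale when any 1 library was left out.

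Other enzymes showed smaller differences of the same kind. Gpi1 had 450 and 372 against 387 and 342 counts, Pfkp 279 and 361 against 271 and 295, and Pkm 660 and 664 against 531 and 656. Scaled to library size their genotypes did not overlap, and their log2 fold changes were 0.33, 0.34 and 0.31. Pfkl had 102 and 90 against 82 and 98 counts (0.25), also without overlap once scaled, and Pfkfb3 44 and 46 against 51 and 40 (0.15), with overlap. The Pkm gene gives alternative splice forms of pyruvate kinase, which counts per gene do not separate. Log2 fold changes lay near 0 for Aldoa (0.12), Tpi1 (0.0087), Gapdh (-0.015) and Pgam1 (-0.011), and those of Tpi1 and Pgam1 change sign with limma-voom or the replicate block. Aldoa had 321 and 269 against 276 and 327 counts, Tpi1 119 and 73 against 98 and 114, and Pgam1 208 and 193 against 276 and 177, all with overlap. Gapdh was the most even member, at 27.6 and 27.3 RPKM in Aire-/- and 27.8 and 27.6 RPKM in Aire+/+ libraries.

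**Figure D4:**
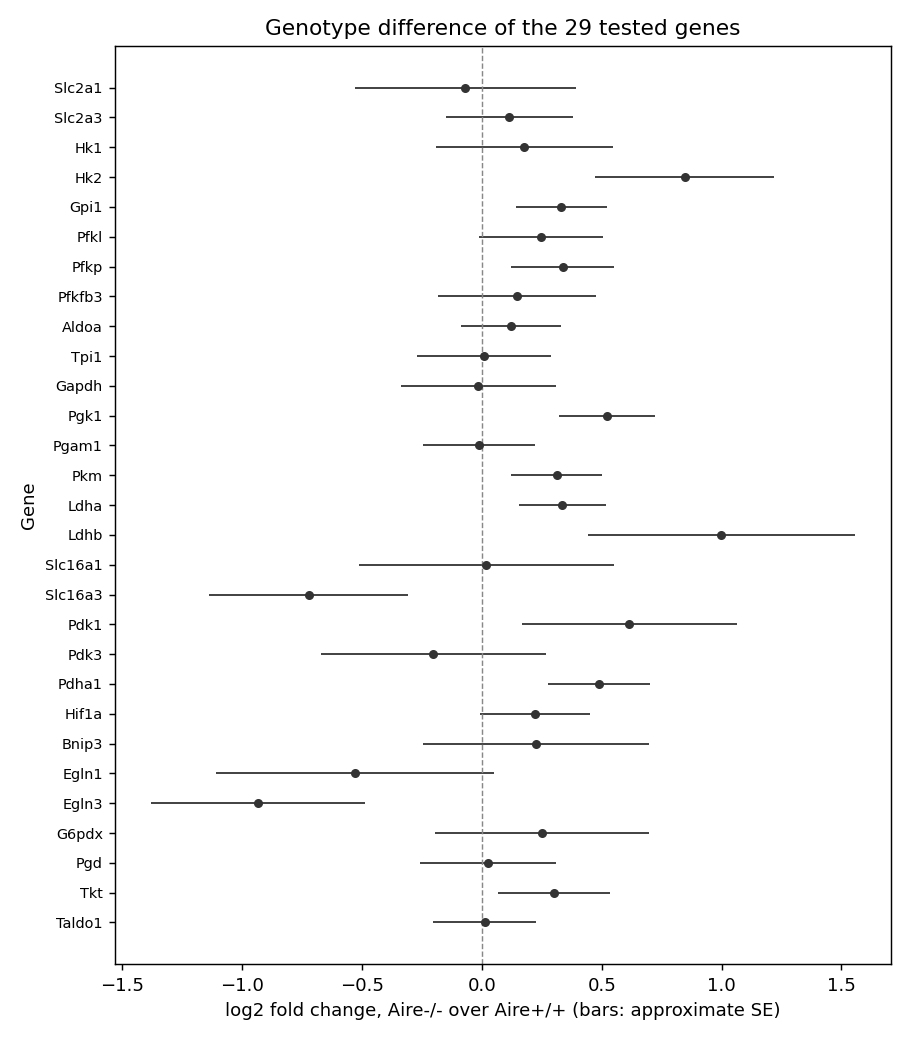
Log2 fold change of the 29 tested genes, Aire-/- over Aire+/+ (horizontal axis), 1 row per gene in order of role, with bars of 1 approximate SE and a dashed line at 0. None passed the test; Ldhb is highest at 1.00 and Egln3 lowest at -0.93.

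At the lactate and pyruvate steps 5 of 7 members lay above 0, with a median of 0.34, and 0 passed. Ldha had 592 and 682 counts against 572 and 556, and its genotypes did not overlap once scaled (log2 0.34, SE 0.18, adjusted p = 0.908, edgeR). Ldhb had the highest log2 fold change of the members, 1.00 (SE 0.56), on 15 and 30 against 10 and 15 counts. Without Aire-/- replicate 2, its highest library, the value was 0.39. Pdha1, the catalytic subunit that pyruvate dehydrogenase kinases inhibit, had 210 and 227 against 168 and 179 counts (log2 0.49, SE 0.21, adjusted p = 0.888, edgeR). Its transcript overlaps Map3k15 on the opposite strand over 16.5% of windows.

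The transporters and kinases of this step lay on both sides of 0. Slc16a3 had 16 and 30 counts in Aire-/- against 39 and 46 in Aire+/+, below them without overlap (log2 -0.72, SE 0.42, adjusted p = 0.931, edgeR). Without Aire-/- replicate 1, its lowest library, the value was -0.32. Slc16a1 was level at 15 and 14 against 18 and 14 counts. Pdk1 lay higher, at 37 and 21 against 19 and 23 counts (0.61, or 0.18 without Aire-/- replicate 1), and Pdk3 had 19 and 25 against 39 and 18 counts (-0.20). The share of Slc16a3 in its pair was 60.4 ± 11.7% in Aire-/- and 73.0 ± 5.78% in Aire+/+ libraries (SD, n = 2 each). That difference had p = 0.333 in an exact two-sided permutation test, the smallest that 2 against 2 libraries allow, and the other 8 families had p of 0.667 or 1.0. Adjusted over the 9 families, each exact permutation p was 1.0.

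Of the hypoxia genes, Hif1a itself had 130 and 148 counts in Aire-/- against 128 and 138 in Aire+/+, a level of 24.8 ± 3.11 RPKM over all 4 (log2 fold change 0.22). HIF-1α is controlled largely at the protein level, which these counts do not show. Egln3, a hydroxylase gene that HIF itself is known to raise, had 16 and 22 counts against 55 and 27. It was the lowest member by fold change (log2 -0.93, SE 0.45, adjusted p = 0.908, edgeR), with no overlap between the genotypes. Without Aire+/+ replicate 1, its highest library, the value was -0.39.

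Egln1 had 14 and 13 against 33 and 11 counts, again with Aire+/+ replicate 1 standing apart. Its log2 fold change was -0.53, and 0.40 without that library. Bnip3, a mitophagy receptor that HIF raises, was level at 24 and 17 against 20 and 19 counts (0.23).

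The 4 pentose phosphate genes had log2 fold changes above 0 (median 0.14), and 0 passed; with upper-quartile factors Pgd and Taldo1 lay below 0. Tkt had 307 and 210 counts against 271 and 198 (log2 0.30, SE 0.24), and Taldo1 210 and 220 against 275 and 203 (0.011). Pgd, the second NADPH-yielding enzyme, had 73 and 61 against 79 and 68 counts (0.025). G6pdx, X-linked as are Pgk1, Pdha1 and Pdk3, had 30 and 86 against 68 and 42 counts. Its log2 fold change of 0.25 became 0.84 without Aire-/- replicate 1 and -0.73 without Aire-/- replicate 2. Its transcript shares 7.65% of windows with G6pd2, a second copy of the gene that had 0 to 3 counts.

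Differences between libraries of the same genotype were as large as those between genotypes for several members. In the Aire-/- pair, replicate 2 exceeded replicate 1 by 3.05 times for Slc2a1, 2.98 times for G6pdx and 2.52 times for Hk2. In the Aire+/+ pair, replicate 1 exceeded replicate 2 by 2.84 times for Egln1 and 1.93 times for Egln3, while Hk1 was 1.96 times higher in replicate 2. For all 6 of these genes the ratio within the pair is larger than the fitted fold between genotypes, though for Egln3 the values are nearly equal.

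An exact two-sided binomial test on the reads of 2 libraries, which compares those libraries and covers counting error only, gave an unadjusted p under 0.05 for 10 of 29 members in the Aire-/- pair. It gave the same for 10 of 29 in the Aire+/+ pair, of which G6pdx and Tkt stood in both sets. Over all tested genes the share was 25.7% in each pair. Abundant enzymes were among both sets, such as Ldha in the Aire-/- and Pkm in the Aire+/+ pair, while Pgk1 was steady, at 1.08 times between the Aire-/- and 0.98 times between the Aire+/+ libraries (replicate 2 over replicate 1).

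**Figure D5:**
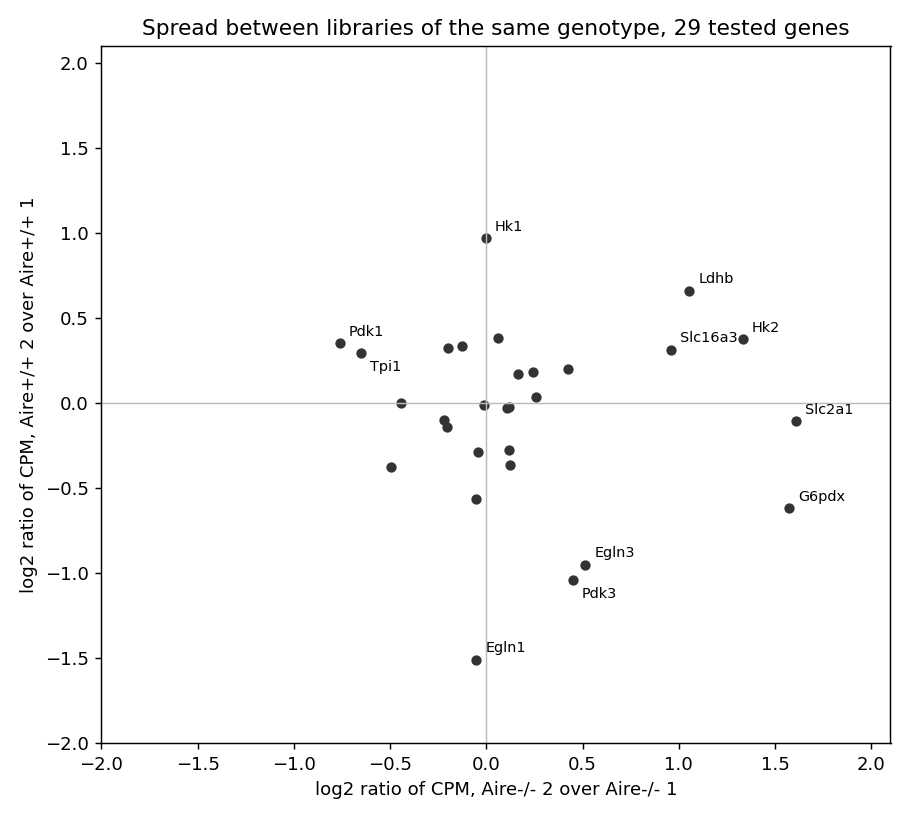
Log2 ratio of CPM between the replicates of Aire-/- (horizontal axis) and of Aire+/+ (vertical axis), replicate 2 over replicate 1, 1 point for each of the 29 tested genes. Slc2a1, G6pdx and Hk2 lie far to the right and Egln1 lies far down, while most genes lie near the centre.

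The 250 bases before the annotated starts were read from RefSeq windows of GRCm38.p6 for 32 of the members (46 windows), with none matched for Slc2a3. They were searched on both strands for ACGTG and GCGTG, the core letters of the element that HIF is known to bind. Either motif stood in 82.6% of the members' windows, against 56.5% of the windows of tested genes and 38.6% of all windows. ACGTG alone stood in 41.3%, 22.2% and 16.6% in the same order. Base composition was close between members and tested genes, with a median GC content of 60.8% and 59.6%, against 52.4% over all windows. CACGTG, which contains ACGTG on both strands and which MYC and related factors are known to bind, stood in 13.0% of the members' windows and 8.45% of those of tested genes. The members were chosen by name, and HIF is known to raise many glycolytic genes, so a higher share could be foreseen. Some windows of the same gene overlap, as for Eno1 and Aldoa, and are counted separately. A match is a description of letters and not a bound site.

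A window of Ldha and that of Ldhb are shown as examples of windows with several matches and with 1. Capitals mark the motifs, and both are written 5′ to 3′ along the gene. For Ldha, the first of its 2 windows is chr7:46845554-46845803 (plus strand), with 5 matches counted by strand, so that each CACGTG counts as a pair. The second window of Ldha, chr7:46846832-46847081, holds 1 match, as many as that of Ldhb, and is not shown. For Ldhb the window is chr6:142507958-142508207 (minus strand), with 1 match.
Ldha: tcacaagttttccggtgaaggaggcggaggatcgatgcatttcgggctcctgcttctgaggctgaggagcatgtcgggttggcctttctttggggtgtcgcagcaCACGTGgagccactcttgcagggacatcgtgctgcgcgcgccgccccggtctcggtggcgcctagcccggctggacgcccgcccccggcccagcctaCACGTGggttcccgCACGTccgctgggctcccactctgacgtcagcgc
Ldhb: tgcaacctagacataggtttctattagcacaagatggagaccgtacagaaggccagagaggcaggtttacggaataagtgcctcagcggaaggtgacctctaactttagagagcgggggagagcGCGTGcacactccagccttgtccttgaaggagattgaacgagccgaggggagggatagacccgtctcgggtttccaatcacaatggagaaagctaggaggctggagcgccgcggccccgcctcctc
In these letters the Ldha window shown holds CACGTG at 2 places and CACGT, the reverse complement of ACGTG, at 1 more, and the Ldhb window holds 1 GCGTG.

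Other genes of these pathways did not pass the test either. Of 143 genes in 8 lists of other isoforms, transport, pyruvate dehydrogenase, gluconeogenesis and glycogen, pentose phosphate, hypoxia and T cell regulators of glycolysis, 81 were tested and 0 were called in either direction by edgeR. At an unadjusted p under 0.05 (edgeR) there were 2 genes higher and 0 lower of the 81, against 2.8% and 2.77% of all genes. Log2 fold changes lay above 0 for 48 and below 0 for 33 of the 81, with a median of 0.14. Over all tested genes 50.9% lay above 0 and the median was 0.01.

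Bhlhe40, a transcription factor that hypoxia and receptor signals raise, had the smallest p, at 338 and 501 counts in Aire-/- against 231 and 301 in Aire+/+. Bhlhe40 lay 0.81 above Aire+/+ on the log2 scale (SE 0.24, adjusted p = 0.821, edgeR), with no overlap. It was the 1 gene of the lists past the threshold when a library was left out (without Aire+/+ replicate 2). Minpp1, a phosphatase of inositol phosphates that also acts on bisphosphoglycerate, was the other gene at an unadjusted p under 0.05 (1.22, adjusted p = 0.888). Among 21 tested hypoxia genes 12 lay above 0, including Arnt, the partner of HIF-1α (0.53), and Plin2, a lipid droplet protein (0.45). Pyruvate dehydrogenase genes other than Pdha1 had 4 of 7 above 0, with Pdpr at 0.65 and Dlat at -0.78, and other pentose phosphate genes 3 of 6, with Pgls at -0.27 and Prps2 at 0.12.

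The other lists were mixed in the same way. Of 8 tested transport genes 7 lay above 0, the exception being Mpc1, a subunit of the mitochondrial pyruvate carrier, at -0.38. Of 5 other genes of glucose entry 4 lay above 0, among them Txnip, which limits glucose uptake, at 0.37. Other glycolytic enzymes and isoforms had 4 of 11 above 0, with Pfkfb4 at -0.93, and gluconeogenesis and glycogen genes 6 of 9, with Pck2 at 0.67 and G6pc3 at -1.26. Of 14 regulators of glycolysis in T cells 8 lay above 0, with the kinase Mtor at 0.63 and the transcription factor Irf4 at -0.49. Each of these had an adjusted p of 0.908 or more (edgeR).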

How the data were processed

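The deposited table gives raw counts for each gene symbol, 1 column for each of the 4 libraries, per the file headers. TopHat2 2.0.10, Cufflinks 2.2.1 and build mm10 are named without role, per the submitters' processing notes. The sources used here do not give the counting step, annotation, strand or handling of reads with several matches. Reads carry no molecular identifiers, so counting error is a lower limit.

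Counts were tested with edgeR 4.0.16 (R 4.3.3, limma 3.58.1, DESeq2 1.42.0): TMM factors, filterByExpr (minimum count 10, total 15), quasi-likelihood test on genotype over all 4 libraries, Benjamini-Hochberg adjustment over 9783 genes. The SE is the absolute log2 fold change over the square root of F. CPM and RPKM use the TMM factors. Lengths, positions and 50-base windows came from GENCODE M21 (GRCm38), which holds all 33 symbols. The steps were run on simulated data with changes larger than those fitted for the members. That run does not show how small a difference could have been called. Depth was 1106891 to 1265239 counts, at which genes of a few counts were not tested. Libraries of a genotype were not copies (chi-square per degree of freedom 4.10 and 4.00). All members could be named, and of each related list the 3 smallest p and the isoforms of the families. The rest of those lists are counted only. Members and lists were chosen with earlier results of these data known. Alternatives are given in the closing section. Exact tests used scipy 1.17.1, with Python 3.11.15, numpy 2.4.6 and pandas 2.3.3.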

Additional observations from a re-analysis of the deposited data

How the results depend on the processing

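No member was called under any alternative tried (other size factors, DESeq2, limma-voom, no filter, a stricter filter, an adjusted p of 0.1, robust dispersion, a replicate block, Rn45s left out, each library left out). The smallest adjusted p of a member was 0.063, for Hk2 without Aire-/- replicate 1, and the median log2 fold change of the tested members ran from 0.11 to 0.22. Of the 29 members 17 kept their direction throughout.

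Over all genes, 21 were called higher and 26 lower with no filter, 2 and 4 with the replicate block, and limma-voom called 1 lower, against 0 and 2. With 1 library left out, 5 to 21 genes were called higher and 6 to 42 lower, and 0 to 1 gene of the related lists was called higher. Such a fit takes the spread of the remaining pair for both genotypes. The cause was not tested.

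The direction turned with upper-quartile factors for Tpi1 (-0.029), Slc16a1 (-0.017), Pgd (-0.011) and Taldo1 (-0.025), with limma-voom for Tpi1 (-0.016) and Pgam1 (0.014), and with the replicate block for Tpi1 (-0.013) and Pgam1 (0.013). With 1 library left out, log2 fold changes ran from -1.08 to 0.53 for Slc2a1, -0.24 to 0.74 for Hk1, -0.041 to 0.29 for Aldoa, -0.35 to 0.30 for Tpi1, -0.27 to 0.29 for Pgam1 and -0.12 to 0.16 for Slc16a1. They ran from -0.62 to 0.40 for Pdk3, -0.010 to 0.43 for Bnip3, -1.09 to 0.40 for Egln1, -0.73 to 0.84 for G6pdx, -0.079 to 0.12 for Pgd and -0.16 to 0.19 for Taldo1.

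Without division by length the mean share was 97.4% for Aldoa, 62.3% for Eno3, 49.9% for Pdk3 and 62.4% for Egln3, and the log2 ratio of Pdk3 to Pdk1 was -0.0065. With coding length it was 97.0% for Aldoa, 62.3% for Eno3 and 50.9% for Pdk3. The share difference between genotypes, in percentage points with 1 library left out, ran from -5.98 to 16.02 for Slc2a3, -3.58 to 18.0 for Hk2, -1.27 to 4.76 for Pfkp and -1.16 to 4.97 for Eno3.

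Replicate numbers are shared in the labels only. Deviations of same-numbered libraries correlated at -0.078 across 9783 genes, and the block called 0 members. Eno1, Eno3, Aldoc and Pfkm had too few counts at this depth to be tested. For Eno1 the part of shared sequence was not tested.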
